A study of Homo sapiens with 6 samples.

Results

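Haem is built from glycine and succinyl-CoA by a chain of enzymes that starts and ends in the mitochondrion, and 9 genes of this route were followed in azacitidine-resistant and azacitidine-sensitive K562 cells. They were taken by name from the deposited count table: the mitochondrial glycine carrier gene SLC25A38, both aminolevulinate synthase genes (ALAS1 and ALAS2), the cytosolic enzyme genes ALAD, UROS and UROD, and the genes of the last mitochondrial enzymes, CPOX, PPOX and FECH. All 9 were found among the 61487 genes of the table, and all 9 passed the filter on low counts. K562 is a human chronic myeloid leukaemia line that carries BCR-ABL1 and makes embryonic and fetal globins. The resistant population was K562 made resistant over months of continuous culture in rising concentrations of azacitidine, a hypomethylating nucleoside drug that cells build into their nucleic acids, where it traps DNA methyltransferases. It was compared with azacitidine-sensitive K562 cells, with 3 libraries in each group and both kept in RPMI medium with serum. The labels list no treatment, name each library a biological replicate of its population and do not say whether cultures were kept apart, so the p-values speak only of how these libraries varied. Resistance and any other change acquired during the selection cannot be told apart. In bulk RNA, fewer cells making a transcript and less of it per cell cannot be told apart.

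The first enzyme sets the pace of the pathway. ALAS1 serves all tissues and is repressed by haem, whereas ALAS2 is the erythroid isoenzyme, is switched on by GATA1 and carries an iron-responsive element in its messenger RNA that blocks translation when iron is scarce. Glycine enters through SLC25A38, the ring is assembled in the cytosol, and ferrochelatase (FECH) inserts iron in the mitochondrial matrix. Erythroid cells run the route at a high rate to supply globin.

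Promoter sequences of ALAS2, ALAS1 and CPOX are given here as RefSeq lists them on GRCh38.p14. Each is the 250 bases before the transcription start. The windows of ALAS2 (chrX:55030978-55031227, minus strand), ALAS1 (chr3:52197833-52198082, plus strand) and CPOX (chr3:98593612-98593861, minus strand) were chosen because ALAS2 varied most between the libraries, ALAS1 varied little, and CPOX held the most GATA-type matches among the members. Capitals mark a GATA-type motif (AGATAA, or TTATCT on the other strand).
ALAS2: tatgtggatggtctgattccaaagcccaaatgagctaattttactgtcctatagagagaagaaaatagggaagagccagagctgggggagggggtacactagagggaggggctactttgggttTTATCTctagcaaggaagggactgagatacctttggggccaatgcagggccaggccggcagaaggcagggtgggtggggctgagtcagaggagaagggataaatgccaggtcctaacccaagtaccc
ALAS1: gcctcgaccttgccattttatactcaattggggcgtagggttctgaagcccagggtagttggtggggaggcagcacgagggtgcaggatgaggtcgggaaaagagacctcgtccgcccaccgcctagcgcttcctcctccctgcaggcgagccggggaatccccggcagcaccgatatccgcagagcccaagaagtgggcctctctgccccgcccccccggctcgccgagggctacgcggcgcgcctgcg
CPOX: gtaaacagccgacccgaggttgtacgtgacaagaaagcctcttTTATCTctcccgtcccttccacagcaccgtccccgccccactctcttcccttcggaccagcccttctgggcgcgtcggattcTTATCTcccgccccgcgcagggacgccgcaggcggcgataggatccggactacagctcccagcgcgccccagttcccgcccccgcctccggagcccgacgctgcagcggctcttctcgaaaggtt
ALAS2 held 1 match, at position −127 from the start, CPOX held 2, at −207 and −125, and the ALAS1 window held none. PPOX had 1 match in 1 of its 2 windows, at −63. The 8 members with a window had 10 windows. Of these 3 held the motif, against 9.17% of all 35116 promoter windows. A second erythroid motif, CCACCC on either strand, lay in the windows of ALAS2, PPOX and SLC25A38 and in 31.3% of all windows. In ALAS2 its 2 matches, at −60 and −56, overlapped each other, and no GATA match overlapped a CCACCC match in any member. There was no window for UROS. Such matches are descriptions of letters and not of bound sites.

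Downstream of its start, ALAS2 carries the iron-responsive element (chrX:55030942-55030967, minus strand), shown because IREB2, whose product binds such elements, differed between the groups. Capitals mark the loop that iron regulatory proteins hold.
ALAS2 element: cgttcgtcctCAGTGCagggcaacag
This hairpin acts on translation, which RNA counts do not measure.

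Total counts per library ranged from 33007642 to 43006918, and expression is given as CPM, each count scaled to its library's total, after TMM scaling, a correction for library composition. On this scale 3 counts corresponded to between 0.0733 and 0.0902 CPM, a floor that covers counting error only. Among 20891 genes that edgeR tested, resistant cells had 9.83% higher and 13.1% lower at a Benjamini-Hochberg adjusted p below 0.05, together 23.0%. Of these calls 42.8% were higher, against 58.9% when libraries were scaled by their totals. That scaling raised fold changes by a median of 0.17 on the log2 scale, and length and GC offsets raised them by 0.12. The libraries numbered 3 stood apart in both groups. Over all tested genes, replicate 3 differed from the mean of replicates 1 and 2 by a median of 0.41 (log2) in resistant and 0.38 in sensitive cells, whereas replicates 1 and 2 differed by 0.24 in resistant and 0.19 in sensitive cells. Mitochondrial ribosomal RNA took 17.8%, 16.8% and 8.54% of counts in the resistant libraries and 14.0%, 16.2% and 12.8% in the sensitive libraries. Results are also given without both libraries numbered 3. That setting leaves 2 libraries against 2 and drops those that stood apart. Its p-values therefore leave out part of the spread within the groups and can be too small. Of 10 genes chosen as marks of K562, 9 had a mean of at least 10 counts, HBE1 being the exception. The labels call the cells myeloblasts, and the myeloblast genes MPO and ELANE had between 2 and 4 and between 0 and 2 counts in each library. AZU1 measured between 1.89 and 2.74 CPM in resistant and 1.98 and 4.99 CPM in sensitive libraries, and PRTN3 between 0.0525 and 0.526 CPM in resistant and 1.21 and 1.61 CPM in sensitive libraries. Among marks of other cell types, the 3 T cell genes summed to between 1.68 and 2.39 CPM in resistant and between 19.0 and 96.2 CPM in sensitive libraries, nearly all CD3D, which was highest in sensitive replicate 3. The 3 B cell genes summed to between 8.24 and 9.30 CPM in resistant and 5.56 and 7.10 CPM in sensitive libraries, with MS4A1 at 0 in all 6. Fibroblast genes (3) summed to between 4.69 and 7.87 CPM in resistant and 0.880 and 2.86 CPM in sensitive libraries. Most of the resistant sum was COL1A2, at 5.32, 6.91 and 4.30 CPM, against 0.0489, 0.601 and 0.321 CPM in the sensitive libraries. COL1A1 went the other way, with means of 0.455 CPM in resistant and 1.10 CPM in sensitive cells, and its groups overlapped. Epithelial genes (4) summed to between 390.4 and 554 CPM in resistant and 474 and 597 CPM in sensitive libraries. Of the epithelial genes CDH1 went against that sum, at 8.97, 8.57 and 3.09 CPM in the resistant libraries, against 0.0244, 0.0601 and 0.0536 CPM in the sensitive ones. Their part in the results was not tested.

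None of the 9 haem synthesis genes passed the edgeR test over all 6 libraries, where 23.0% of tested genes did. DESeq2 and limma-voom called 0 of 9 as well, and 3 members, ALAD, UROD and FECH, had an unadjusted edgeR p below 0.05. With the replicate number as a block, edgeR called FECH higher and UROD lower, among 2859 genes higher and 3582 lower. Of the log2 fold changes, 5 were positive and 4 negative, with a median of 0.01 against 0.03 for all tested genes. Resistant and sensitive libraries did not overlap for 2 members, ALAD and FECH, both higher in resistant cells, against 18.7% of tested genes higher and 21.4% lower without overlap, together 40.1%. Scaling by library totals called ALAD and FECH higher (0.60 and 0.78 log2, edgeR adjusted p = 0.0276 and 0.0273), changes that include the shift of 0.17 of all genes. Missing the threshold does not show that the groups were alike. The 95% limma-voom intervals reached from −1.24 to −0.11 for UROD and from −0.54 to 1.48 for ALAS2. Without both libraries numbered 3, edgeR called 5 of 9 members, ALAD and FECH higher and ALAS2, UROD and CPOX lower, where of the 21908 genes then tested 21.2% were higher and 22.9% lower, together 44.1%.

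**Figure D1:**
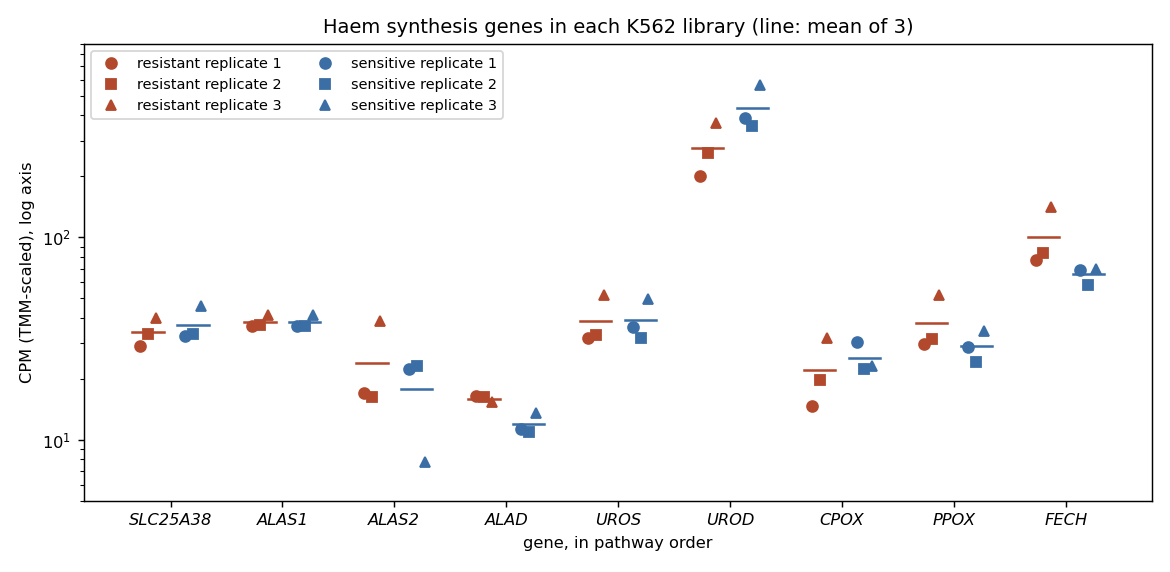
CPM of the 9 haem synthesis genes in each library on a log axis, in pathway order, with resistant libraries left of sensitive ones, symbols for replicates 1 to 3 and a line at each group's mean. ALAD and FECH are the genes whose groups do not overlap, and ALAS2 shows replicate 3 highest in resistant cells (38.6 CPM) and lowest in sensitive cells (7.74 CPM).

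The glycine carrier gene differed by less than the spread between libraries. SLC25A38, the inner-membrane carrier whose loss causes congenital sideroblastic anaemia, lies on chromosome 3 (39383324 to 39397351, plus strand, GENCODE 29 on GRCh38). It measured 29.1, 33.4 and 40.2 CPM in resistant replicates 1, 2 and 3, against 32.5, 33.1 and 45.7 CPM in the sensitive ones. The groups overlapped, and replicate 3 was highest in both. The log2 fold change was −0.12 ± 0.19 (SE, edgeR adjusted p = 0.701), with a limma-voom interval from −0.54 to 0.32, and the sign turned with library totals (0.06).

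ALAS1 had the fold change nearest 0 of the 9. The housekeeping aminolevulinate synthase gene, on chromosome 3 (52198086 to 52214327, plus strand), measured 36.3, 36.9 and 41.3 CPM in the resistant libraries, against 36.6, 36.3 and 41.1 CPM in the sensitive ones. The ranges of the groups nearly coincided, with replicate 3 the highest in each. Its log2 fold change was 0.01 ± 0.14 (SE, edgeR adjusted p = 0.980), and the limma-voom interval, from −0.31 to 0.33, was the narrowest of the 9.

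ALAS2, the erythroid isoenzyme gene on chromosome X (55009055 to 55031064, minus strand), varied more within each group than between them. It measured 17.1, 16.3 and 38.6 CPM in the resistant libraries, against 22.4, 23.3 and 7.74 CPM in the sensitive ones. Replicate 3 was the highest resistant and the lowest sensitive library, and the ranges overlapped. The log2 fold change was 0.43 ± 0.43 (SE, edgeR adjusted p = 0.513). Without both libraries numbered 3 the direction turned, to −0.47 (edgeR adjusted p = 0.0126), and without resistant replicate 3 alone it was −0.11 (0.844). Without sensitive replicate 3 alone it was 0.07 (0.914).

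The balance of the isoenzymes followed ALAS2. Per kilobase of annotated exon, ALAS2 made up 35.8%, 34.4% and 52.6% of the summed ALAS1 and ALAS2 transcripts in the resistant libraries, against 42.1%, 43.2% and 18.3% in the sensitive ones. Means were 40.9% ± 10.1 in resistant and 34.5% ± 14.1 in sensitive cells (SD, n = 3 each). The difference of 6.40 percentage points did not exceed the spread (exact two-sided permutation p = 0.6, where 3 against 3 libraries allow no p below 0.1). It was −7.55 percentage points without both libraries numbered 3, a setting added for this share after seeing the data (exact permutation p = 0.333, the smallest that 2 against 2 allow) and −1.73 without sensitive replicate 3 (exact permutation p = 1).

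Among the cytosolic steps, ALAD had a positive and UROD a negative fold change, neither past the threshold, and UROS differed by less than its spread. ALAD, which joins aminolevulinate into the pyrrole porphobilinogen, lies on chromosome 9 (113386317 to 113401333, minus strand). It measured 16.4, 16.2 and 15.3 CPM in the resistant libraries, against 11.3, 10.9 and 13.6 CPM in the sensitive ones. Every resistant library lay above every sensitive one, and the resistant values lay close together. The log2 fold change was 0.42 ± 0.17 (SE, edgeR adjusted p = 0.103), and 0.54 (0.0106) without both libraries numbered 3.

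UROD, the decarboxylase that makes coproporphyrinogen, was the most abundant member and lies on chromosome 1 (45012147 to 45015575, plus strand). It measured 202, 261 and 365 CPM in the resistant libraries, against 387, 356 and 567 CPM in the sensitive ones. Only resistant replicate 3 reached into the sensitive range, and within each group replicate 3 was the highest. The mean was 276 ± 82.7 CPM in resistant and 437 ± 114 CPM in sensitive cells (SD, n = 3 each), a log2 fold change of −0.66 ± 0.26 (SE, edgeR adjusted p = 0.0968). UROD was lower at −0.70 (edgeR adjusted p = 8.53e-04) without both libraries numbered 3, and at −0.94 (0.0163) without resistant replicate 3 alone.

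UROS closes the porphyrin ring, and its gene lies on chromosome 10 (125784980 to 125823285, minus strand). It measured 31.7, 33.0 and 51.7 CPM in the resistant libraries, against 36.2, 32.0 and 49.5 CPM in the sensitive ones. The groups overlapped almost fully, with replicate 3 highest in both, and the log2 fold change was −0.02 ± 0.23 (SE, edgeR adjusted p = 0.969), or 0.16 with library totals.

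The last mitochondrial steps were the members that stood furthest above their group, after ALAS2, in resistant replicate 3. CPOX, the oxidase of the intermembrane space that makes protoporphyrinogen, lies on chromosome 3 (98579446 to 98593723, minus strand). It measured 14.7, 19.7 and 31.9 CPM in the resistant libraries, against 30.5, 22.4 and 23.0 CPM in the sensitive ones. Resistant replicate 3 was the highest of all 6 and resistant replicates 1 and 2 were the lowest. The log2 fold change was −0.19 ± 0.27 (SE, edgeR adjusted p = 0.648), and CPOX was lower at −0.63 (0.00823) without both libraries numbered 3. It shares 163 exonic bases with AC021660.3 on the same strand, which had 0 counts.

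PPOX, which oxidises protoporphyrinogen to protoporphyrin, lies on chromosome 1 (161166410 to 161178013, plus strand). It measured 29.8, 31.3 and 52.1 CPM in the resistant libraries, against 28.6, 24.2 and 34.5 CPM in the sensitive ones. The groups overlapped, and the log2 fold change was 0.37 ± 0.24 (SE, edgeR adjusted p = 0.289), or 0.20 (0.254) without both libraries numbered 3. Without resistant replicate 3 alone it was 0.05 (edgeR adjusted p = 0.861). In GENCODE 29, 1118 of its 4607 exonic bases are shared with B4GALT3 on the opposite strand, and the strand setting of the counting is not given in the sources used here, so reads of this stretch cannot be told apart.

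FECH, the iron-sulfur enzyme that inserts iron into protoporphyrin, lies on chromosome 18 (57548283 to 57586772, minus strand). It measured 76.8, 83.9 and 141 CPM in the resistant libraries, against 68.9, 58.3 and 69.5 CPM in the sensitive ones. Every resistant library lay above every sensitive one, resistant replicate 3 by far. FECH had the lowest edgeR adjusted p of the 9 members, 0.0798, at a log2 fold change of 0.62 ± 0.23 (SE). FECH was higher at 0.79 (edgeR adjusted p = 0.0418) without resistant replicate 1, and at 0.32 (0.0408) without both libraries numbered 3. Without resistant replicate 3 alone it was at 0.27 (0.187), and it did not pass without any of the other 4 libraries (edgeR adjusted p from 0.119 to 0.254).

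**Figure D2:**
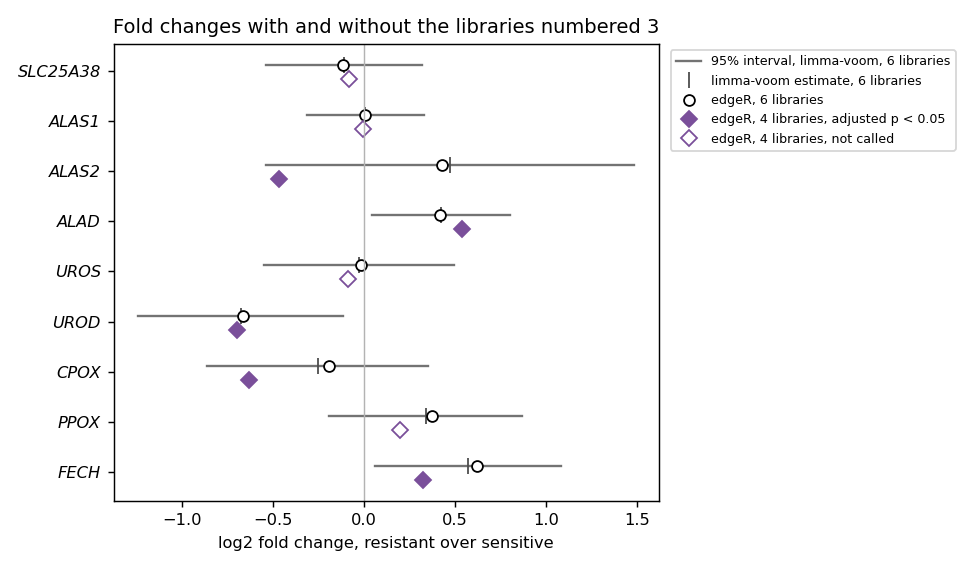
Log2 fold change, resistant over sensitive, of each member: edgeR over 6 libraries (open circles) with the limma-voom estimate and its 95% interval (ticks and lines), and edgeR over 4 libraries, without those numbered 3 (diamonds, filled where the adjusted p is below 0.05). No circle is called, 5 diamonds are filled, and ALAS2 is at 0.43 over 6 libraries and −0.47 over 4.

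The members did not deviate alike in replicate 3. In resistant cells, replicate 3 exceeded the mean of replicates 1 and 2 by 1.21 (log2) for ALAS2, 0.90 for CPOX, 0.82 for FECH, 0.77 for PPOX, 0.68 for UROS and 0.67 for UROD. The excess was 0.36 for SLC25A38 and 0.18 for ALAS1, and ALAD differed by −0.09. In sensitive cells the same distance was −1.55 for ALAS2 and −0.18 for CPOX, and between 0.13 (FECH) and 0.61 (UROD) for the other 7. ALAS2 therefore swung to opposite sides in the libraries numbered 3, and 6 members (SLC25A38, ALAS1, UROS, UROD, PPOX and FECH) were higher in both of them. The labels name no batch for these libraries.

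Other genes of red cells did not all follow ALAS2 in the libraries numbered 3, as 4 genes chosen after their values were seen show. HBG1, a fetal globin gene almost identical to HBG2, measured 35.3, 35.1 and 123 CPM in the resistant libraries, against 86.5, 58.1 and 101 CPM in the sensitive ones. SLC25A37, the mitochondrial iron importer of erythroid cells, measured 168, 175 and 257 CPM in the resistant, against 248, 228 and 134 CPM in the sensitive libraries. Resistant replicate 3 was the highest library for both genes, and sensitive replicate 3 was the lowest for SLC25A37 but the highest sensitive one for HBG1. The regulator gene GATA2 was lowest in resistant replicate 3, at 94.1, 88.1 and 66.3 CPM in the resistant, against 103, 98.4 and 77.0 CPM in the sensitive libraries. ZFPM1, which encodes a GATA1 cofactor, was also lowest there, at 20.4, 12.5 and 7.34 CPM in the resistant, against 13.9, 12.8 and 11.1 CPM in the sensitive libraries. The part of these differences, or of the lower mitochondrial ribosomal RNA of resistant replicate 3, in the values of the members was not tested.

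**Figure D3:**
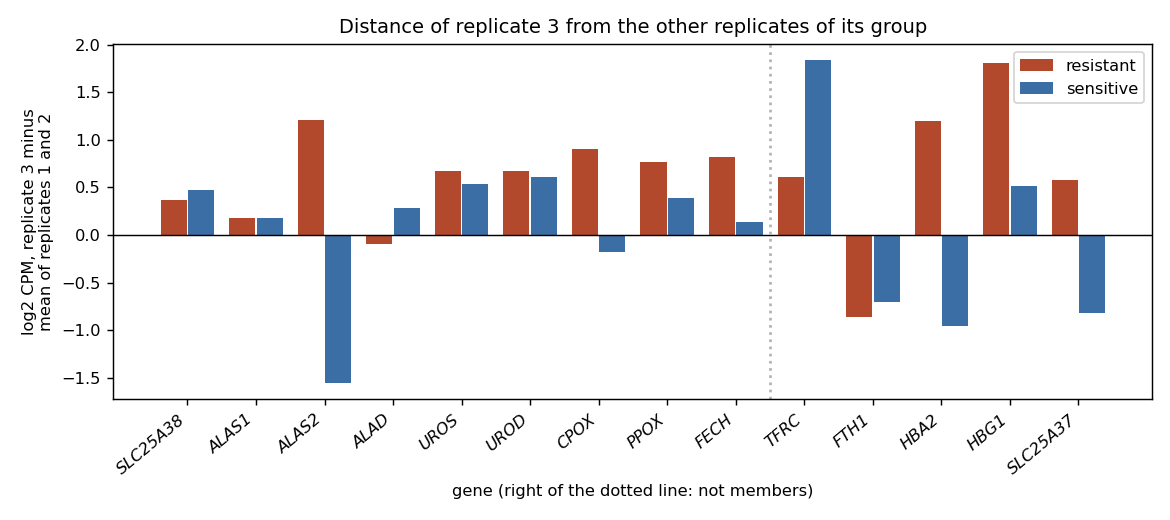
Log2 CPM of replicate 3 minus the mean of replicates 1 and 2 in resistant and sensitive cells, for the 9 members (left of the dotted line) and 5 genes of iron handling and red cells. ALAS2 is at 1.21 in resistant and −1.55 in sensitive cells, while TFRC is at 0.61 in resistant and 1.84 in sensitive cells.

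Levels of different members were compared per kilobase of annotated exon (RPKM). UROD stood far above the rest, at 94.8 ± 28.4 RPKM in resistant and 150.1 ± 39.1 RPKM in sensitive cells (SD, n = 3 each), above 98.4% of tested protein-coding genes. In resistant cells FECH followed at 22.5 ± 7.92, ALAS1 at 15.1 ± 1.08, SLC25A38 at 12.6 ± 2.06, ALAS2 at 11.2 ± 5.93, PPOX at 8.19 ± 2.70, CPOX at 6.85 ± 2.74, UROS at 4.07 ± 1.17 and ALAD at 3.21 ± 0.121 RPKM. In that order the ranges of neighbours were separate for UROD and FECH, FECH and ALAS1, and UROS and ALAD, and overlapped for the other 5 pairs. In sensitive cells ALAS1, at 15.0 ± 1.07, FECH, at 14.6 ± 1.41, and SLC25A38, at 13.7 ± 2.75 RPKM, overlapped one another. ALAS2 followed at 8.34 ± 4.08, CPOX at 7.82 ± 1.39, PPOX at 6.32 ± 1.13, UROS at 4.11 ± 0.959 and ALAD at 2.40 ± 0.282 RPKM, with separate ranges for SLC25A38 and ALAS2, PPOX and UROS, and UROS and ALAD. The order depends on the length used. UROS has 9532 annotated exonic bases but a principal transcript of 1371 bases, over which it measured 28.3 ± 8.16 RPKM in resistant and 28.6 ± 6.67 RPKM in sensitive cells, next below UROD.

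Some members followed one another closely over the 6 libraries. The root mean square difference of their centred log2 CPM was 0.13 for SLC25A38 and UROS, 0.14 for SLC25A38 and ALAS1, and 0.15 for PPOX and FECH, the closest 3 of the 36 pairs. Outside the pathway, 11491 named genes with a mean of at least 100 counts were ranked by the same distance from ALAS2. The nearest was MGAT4A, which encodes an enzyme of N-glycan branching, at a distance of 0.18. It measured 6.78, 7.52 and 12.2 CPM in the resistant libraries, against 7.65, 8.42 and 3.19 CPM in the sensitive ones, so it too was highest in resistant replicate 3 and lowest in sensitive replicate 3. The kinase gene PLK2 (0.29), the fucosyltransferase gene FUT1 (0.30), RELL1 (0.33) and NUDT4B (0.33) came next. NUDT4B has a near-identical copy, so its counts are uncertain. These distances are a description over 6 libraries.

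Of 22 mitochondrial partners of the pathway, all tested, 4 were higher (18.2%), 3 lower (13.6%) and 15 did not pass, with a median log2 fold change of −0.18. Over all tested genes 9.83% were higher and 13.1% lower, with a median of 0.03. FAM210B, an inner-membrane protein gene needed for iron delivery to ferrochelatase in erythroid cells, measured 127, 142.5 and 195 CPM in the resistant libraries, against 73.5, 76.2 and 64.3 CPM in the sensitive ones. It rose by 1.12 ± 0.19 on the log2 scale (SE, edgeR adjusted p = 0.00236). CLPX, which encodes the unfoldase that activates aminolevulinate synthase and also directs its breakdown, averaged 86.7 ± 11.6 CPM in resistant and 57.0 ± 4.64 CPM in sensitive cells (SD, n = 3 each, edgeR adjusted p = 0.0191). The 20 tested protein-coding genes nearest FAM210B had a median log2 fold change of 0.69, with 9 called higher, and those nearest CLPX a median of 0.79, with 9 called higher. The part of these regions in the rise of either gene was not tested. Around the members themselves this median ran from −0.24 at PPOX to 0.40 at ALAS2.

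TSPO, an outer-membrane porphyrin-binding protein gene, averaged 26.6 ± 6.16 CPM in resistant and 51.1 ± 3.08 CPM in sensitive cells (SD, n = 3 each, edgeR adjusted p = 0.00565). Named after their values were seen, PGRMC2, a haem chaperone gene, was higher (log2 fold change 0.66, edgeR adjusted p = 0.0193) and LONP1, the matrix protease that degrades ALAS1, lower (−0.64, 0.0284, and 0.0797 with library totals). Both calls and that of CLPX were lost when single libraries were left out. PGRMC2 was lost without resistant replicate 1 or 2 or sensitive replicate 1 or 2 (adjusted p up to 0.108), as was LONP1 (up to 0.170). CLPX was lost without resistant replicate 2 or sensitive replicate 1 or 2 (up to 0.117). Of the 22 partners 5 were higher and 11 lower without both libraries numbered 3, where 21.2% of all tested genes were higher and 22.9% lower. Both chosen for these values, ABCB10, the transporter that partners SLC25A37, and TMEM14C, which brings protoporphyrinogen into the mitochondrion, were among those lower (−0.92 and −0.63, edgeR adjusted p = 3.53e-05 and 8.40e-04). Over all 6 libraries neither passed (−0.56 and −0.45, edgeR adjusted p = 0.153 and 0.229), and the groups overlapped for both.

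Of 12 genes of haem breakdown, export and sensing, 11 were tested, and 3 were higher, 4 lower and 4 did not pass (median −0.34), beside 9.83% higher and 13.1% lower of all tested genes. There were 3 higher and 5 lower without both libraries numbered 3, beside 21.2% and 22.9% of all tested genes. EIF2AK1, the kinase that halts globin synthesis when haem is short, measured 217, 210.3 and 215 CPM in the resistant libraries, against 138, 151 and 142 CPM in the sensitive ones (log2 fold change 0.58 ± 0.15 SE, edgeR adjusted p = 0.0181). FLVCR1, long known as a haem exporter gene, averaged 41.9 ± 2.37 CPM in resistant and 28.1 ± 2.58 CPM in sensitive cells (SD, n = 3 each, edgeR adjusted p = 0.0190). The groups of both genes did not overlap. SLC48A1, a lysosomal haem importer gene, fell by 1.00 ± 0.20 on the log2 scale (SE, edgeR adjusted p = 0.00606). ABCG2, a porphyrin exporter gene, had 0.775, 0.101 and 0.315 CPM in the resistant libraries, against 3.06, 4.57 and 3.27 CPM in the sensitive ones (edgeR adjusted p = 0.00346). Named after their values were seen, the haem-binding protein gene HEBP1 was higher (1.18, edgeR adjusted p = 0.0248) and BLVRA, a biliverdin reductase gene, lower (−0.81, 0.0190). FLVCR2, also lower (−2.87, edgeR adjusted p = 0.0289), was highest in sensitive replicate 3, at 2.38 CPM, and was at −1.71 (0.138) without that library, at −2.66 (0.111) without resistant replicate 2 and at −1.40 (0.104) without both libraries numbered 3. Leaving out resistant replicate 2 took the adjusted p of FLVCR1 to 0.116 and of EIF2AK1 to 0.0964, sensitive replicate 1 to 0.0697 and 0.115, and sensitive replicate 2 to 0.118 and 0.0799. HEBP1 was lost without resistant replicate 1 or 2 or sensitive replicate 1 or 2 (up to 0.0952), and BLVRA without resistant replicate 1 or 2 or sensitive replicate 3 (up to 0.0969). HMOX1, the inducible haem oxygenase gene, was not tested, with 4, 14 and 10 counts in the resistant libraries, against 2, 0 and 0 in the sensitive ones.

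**Figure D4:**
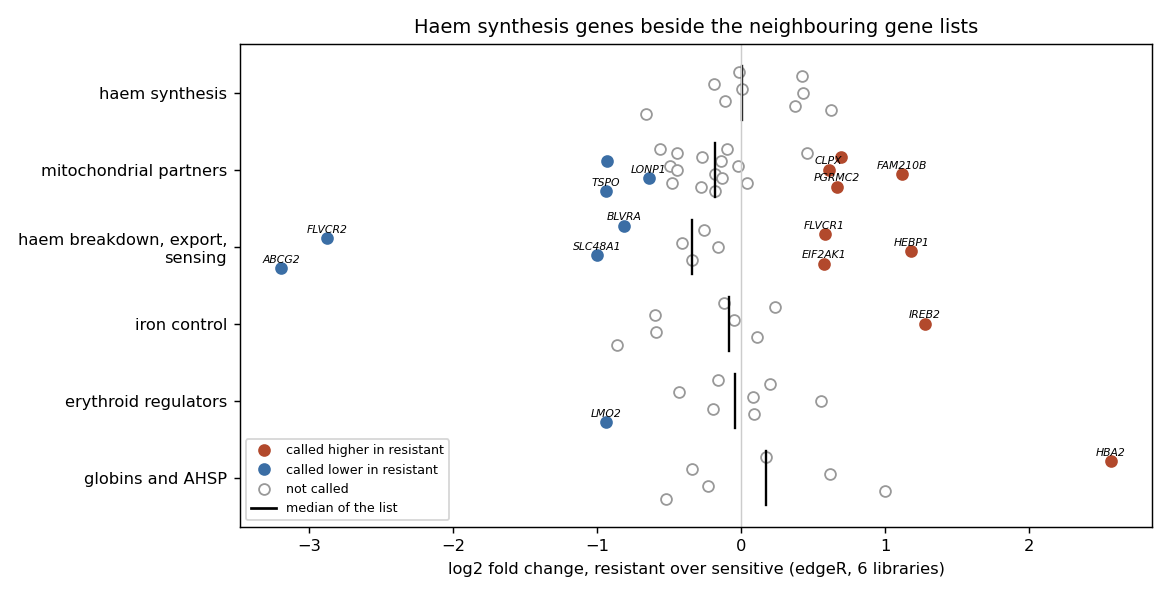
Log2 fold change, resistant over sensitive, of each tested gene in the haem synthesis list and 5 neighbouring lists, filled where the edgeR adjusted p is below 0.05, with a bar at each list's median and names for the called genes described in the text. No haem synthesis gene is filled, and the called genes lie in the other 5 lists.

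In the list of iron control, IREB2 was the 1 gene of 8 that passed, with a list median of −0.08, and 23.0% of all tested genes passed. Without both libraries numbered 3 there were 2 higher and 2 lower, 4 of 8 where 44.1% of all tested genes passed. IREB2 encodes an iron regulatory protein that binds elements such as that of ALAS2, and it measured 165, 168 and 150.4 CPM in the resistant libraries, against 68.4, 60.2 and 70.9 CPM in the sensitive ones. The groups were far apart, with a log2 fold change of 1.28 ± 0.15 (SE, edgeR adjusted p = 2.58e-04), and the 20 genes nearest it had a median of 0.42. ACO1, which encodes the other iron regulatory protein, had a log2 fold change of −0.05 ± 0.15 (SE, edgeR adjusted p = 0.842). TFRC, the transferrin receptor, whose messenger is stabilised by these proteins, measured 591, 657 and 954 CPM in the resistant libraries, against 325, 347 and 1200.4 CPM in the sensitive ones. Sensitive replicate 3, where ALAS2 was lowest, had the most TFRC of all 6. Over 6 libraries TFRC did not pass (log2 fold change 0.23 ± 0.46 SE, edgeR adjusted p = 0.756), but it was higher without both libraries numbered 3 (0.88, 7.40e-05), and without sensitive replicate 3 alone (1.12, 0.0212). The ferritin genes FTH1 and FTL, whose messengers carry the element at their start, were at −0.86 ± 0.28 and −0.60 ± 0.21 (SE), with edgeR adjusted p-values of 0.0515 and 0.0703, and DESeq2 called both lower (0.0173 and 0.0137). Without both libraries numbered 3 both were lower (−0.84, edgeR adjusted p = 1.42e-04, and −0.81, 6.37e-04). ACO1, TFRC, FTH1 and FTL were named after their values were seen.

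Of 8 erythroid regulators of haem genes, 1 was lower and 7 did not pass, with a median of −0.04, where 13.1% of all tested genes were lower. None was higher and 2 were lower without both libraries numbered 3, where 22.9% of all tested genes were lower. LMO2, a bridging protein gene of the GATA1 complex, fell to 38.5, 39.8 and 55.8 CPM in the resistant libraries, against 81.1, 76.5 and 99.6 CPM in the sensitive ones (edgeR adjusted p = 0.00583 at a log2 fold change of −0.94 ± 0.19 SE, with 0.0524 without resistant replicate 2). GATA1, which activates ALAS2, measured 80.6, 83.7 and 87.9 CPM in the resistant libraries, against 99.4, 113 and 128 CPM in the sensitive ones, without overlap (log2 fold change −0.43 ± 0.15 SE, edgeR adjusted p = 0.0664). TAL1, another member of that complex, measured 84.1, 86.3 and 120.2 CPM in the resistant libraries, against 74.4, 68.3 and 55.7 CPM in the sensitive ones, also without overlap. Its log2 fold change was 0.55 ± 0.19 (SE, edgeR adjusted p = 0.0602), DESeq2 called it higher (0.0398), and it did not pass, at 0.24, without both libraries numbered 3. Both genes were named after their values were seen. Among 9 genes of the globin list, which includes the alpha globin chaperone gene AHSP, 7 were tested, 1 was higher and 6 did not pass (median 0.17), where 9.83% of all tested genes were higher. Of these 7, 1 was higher and 3 were lower without both libraries numbered 3, where 21.2% of all tested genes were higher and 22.9% lower. This was HBA2, which codes for alpha globin and whose reads may be shared with its twin HBA1, at 9.69, 10.4 and 23.0 CPM in the resistant libraries, against 3.91, 1.92 and 1.39 CPM in the sensitive ones (edgeR adjusted p = 0.00288).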

How the data were processed

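RNA from 3 resistant and 3 sensitive K562 libraries was sequenced in pairs after ribosomal RNA removal with a stranded kit, per the labels' protocols. The authors deposited raw counts per Ensembl gene. They named Subread 2.0.3 with featureCounts, HISAT2 2.2.1 and Trimmomatic 0.39, and the build GRCh38, per the submitters' processing notes. Neither the annotation release nor the strand setting is given in the sources used here. Exonic lengths and positions are from GENCODE 29, on GRCh38, and may differ from the authors' annotation. Symbols came from a reference name table, and all 68 list entries matched.

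Counts were filtered with filterByExpr, scaled with TMM and tested with edgeR 4.0.16 (robust quasi-likelihood test, two-sided, R 4.3.3), with adjustment over all 20891 tested genes. The SE is the log2 fold change divided by the square root of F, an approximation. Intervals are from limma 3.58.1 (voom). RPKM is CPM per kilobase of merged exons. Centred log2 CPM used a prior count of 2. Alternatives were other scalings, filters and tools (DESeq2 1.42.0), a replicate block, each library left out, no libraries numbered 3 and an adjusted p below 0.01, and, chosen after seeing the data, length and GC offsets (smooth fits with a span of 0.3), principal transcript lengths and the ALAS2 share without both libraries numbered 3. The members and lists were chosen with earlier results of these data known. Named were all members, up to 4 called genes per list with the lowest adjusted p and the 5 genes nearest ALAS2, and other genes were named after their values were seen. Some genes of the lists are not reported here by name. On simulated counts for this comparison, 200 of 20891 genes were changed in each of 3 simulations. The changed genes were drawn only from those with an expected count of at least 50. There edgeR found 92.9% of the changes at 4-fold, 42.8% at 2-fold and 5.47% at 1.5-fold, and 5.07% of its calls were unchanged genes. In the data 23.0% of tested genes were called, far more than were changed in the simulation. These shares therefore do not say how many real changes of a given size were missed here. Replicates of a group differed beyond sampling noise, with a chi-square per degree of freedom of at least 18.95.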

Additional observations from a re-analysis of the deposited data

How the results depend on the processing

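Settings in this paragraph were tried on the 9 members, and the cause of each change was not tested. Of the recomputed values of the main results, 164 were counted as the same. These were fold changes and shares that kept their sign and their side of the threshold, and numbers of called genes near the main number. Another 22, all numbers of called genes, lay further from the main number. A further 20 values reversed, among them ALAS2 without both libraries numbered 3, which also passed the threshold, and 15 kept their direction and newly passed it. The number of members called higher, 0 over all libraries with TMM, was 1 with upper quartile factors, 2 with library totals alone, 1 without a filter, 1 with at least 50 counts in 3 libraries and 1 with length and GC offsets. The number called lower, also 0, was 1 without a filter. FECH was at 0.69 (log2) with upper quartile factors, 0.78 with library totals, 0.61 without a filter, 0.65 with at least 50 counts and 0.73 with length and GC offsets, in each case past the threshold. ALAD passed at 0.60 with library totals and UROD at −0.68 without a filter. Near zero, SLC25A38 reversed to 0.064 with library totals and 0.0074 with the offsets. UROS reversed to 0.059 with upper quartile factors, 0.16 with library totals, 0.017 with at least 50 counts and 0.017 with the offsets, and ALAS1 to −0.013 without a filter. At an adjusted p below 0.01, 938 genes were higher and 1586 lower.

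Without both libraries numbered 3, 2 members were higher (ALAD 0.54, FECH 0.32) and 3 lower (ALAS2 −0.47, UROD −0.70, CPOX −0.63), ALAS1 was at −0.0078, the ALAS2 share differed by −7.55 percentage points (a setting added for it after seeing the data), and 4645 genes were higher and 5021 lower. Leaving out each library in turn, 0 to 1 members were higher and 0 to 1 lower, and 1051 to 3327 genes were higher and 1677 to 3718 lower, with the fewest in both directions without resistant replicate 2 and the most without resistant replicate 3. The fold changes then ranged from −0.27 to 0.057 for SLC25A38, −0.076 to 0.060 for ALAS1, −0.11 to 0.66 for ALAS2, 0.33 to 0.51 for ALAD, −0.30 to 0.18 for UROS, −0.94 to −0.43 for UROD, −0.57 to 0.035 for CPOX, 0.05 to 0.52 for PPOX, 0.27 to 0.79 for FECH and −0.10 to 1.12 for TFRC, and the ALAS2 share difference from −1.73 to 10.8 percentage points.

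Libraries with the same number deviated from their group means with correlations of 0.20, 0.085 and 0.30. Libraries with different numbers had correlations from −0.31 (resistant replicate 1 with sensitive replicate 3) to 0.23 (resistant replicate 1 with sensitive replicate 2). The labels state no pairing, so the main test took none. These correlations do not settle whether the numbers mark pairs. With the replicate number as a block, 1 member was higher (FECH 0.57, edgeR adjusted p = 0.0259) and 1 lower (UROD −0.68, 0.00453), among 2859 genes higher and 3582 lower.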
